A study of Mesocricetus auratus with 38 samples.

Results

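Peroxisomal genes of the hamster liver were described here in 2 classes: the peroxins, which build the organelle, and the enzymes, transporters and membrane proteins that work in it. Members were the rows of the deposited tables whose symbol begins with Pex and a digit, or is one of a list of named peroxisomal genes, so the rule itself goes by symbol. Described here are 34 of the 14631 symbols, of which 13 were peroxins and 21 were enzymes, transporters or membrane proteins. Pex13, Scp2, Acaa1a, Hacl1, Eci2, Ddo, Lonp2 and Nudt7 are on the list of names but were not analysed here. After the filter on low counts, 32 members were tested (12 peroxins and 20 others). The untested members were Pex5l, a paralogue of the import receptor that is known from brain and had 0 counts in every library, and Abcd2, a transporter of very long acyl-CoA, whose mean was 0.21 to 0.42 CPM, a count scaled by library size, in the 4 groups.

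The data were liver RNA-seq of male Golden Syrian hamsters, labelled 22 weeks of age, in 38 libraries. Control animals (9 libraries) were kept for 12 weeks on a normal diet in which fat gave 11% of calories, and HFD animals (10 libraries) on a high-fat diet in which fat gave 23% of calories, with 1 g/kg of cholesterol. Dose I (HFD + MI_D1, 9 libraries) and Dose II (HFD + MI_D2, 10 libraries) had the same HFD and, over the last 4 weeks, combined metabolic activators (CMA), while the HFD group had a placebo. Dose I was 200 mg/kg each of L-carnitine, N-acetylcysteine and nicotinamide riboside plus 400 mg/kg of betaine, and Dose II was 400 mg/kg of each plus 800 mg/kg of betaine, so no single agent can be told apart from the mixture. All animals were killed after 6 h of fasting, and the labels do not name individuals, so a library was treated as 1 animal.

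Peroxisomes shorten very long, branched and dicarboxylic fatty acids and the side chains of bile acid precursors, start the synthesis of ether lipids, and hold oxidases that release hydrogen peroxide. They have no DNA. Their membrane proteins are inserted by Pex3, Pex16 and Pex19, and their matrix proteins are carried in by Pex5 and Pex7, which are then pulled back to the cytosol with the help of Pex6. In rodent liver many of these genes are known targets of PPAR-alpha, a nuclear receptor for fatty acids. The roles given below come from work in human, mouse, rat and yeast rather than in hamster.

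Total estimated counts ran from 4.08e+06 to 1.04e+07 per library, with group medians of 5.01e+06, 5.62e+06, 5.64e+06 and 6.10e+06 in the order above. A single library is written as its labelled number after C (control), H (HFD), DI (Dose I) or DII (Dose II). The control library C105 stood at 19.2 on the first principal component, and the other 8 controls at −23.1 to −12.7. The study left out 1 control on such an analysis without naming it. Values are therefore given over 37 libraries without C105, and over all 38 where that changes a call or a count. The count model DESeq2 on these 37 libraries called 3317 genes under HFD, 80 in Dose I and 641 in Dose II. These are the totals the study reports. Transcript length also moved with the groups: the rank correlation across genes between relative length and a library's deviation from the mean of all was 0.12 to 0.34 in the 8 controls, −0.20 to 0.18 in HFD, −0.26 to 0.13 in Dose I and −0.28 to 0.11 in Dose II, and was −0.36 in C105. Results with this trend removed are given where it touches a member.

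The members took 0.56% to 0.87% of a library's counts. Levels between genes were compared in TPM, which the authors deposited and which divides counts by transcript length and library total. The enzyme class held the most and the least abundant tested member. Phyh, which starts the alpha-oxidation of phytanic acid, had a median of 1004 TPM over the 37 livers, followed by Ech1, a dienoyl-CoA isomerase of peroxisomes and mitochondria, at 801 TPM and Pxmp2, a channel of the peroxisomal membrane, at 435 TPM. Far1, which supplies fatty alcohol for ether lipids, stood last at 0.55 TPM. The peroxins ran from 6.12 TPM for Pex6 to 70.02 TPM for Pex19, with a middle value of 23.5 TPM against 70.1 TPM for the 20 others. Within groups, the coefficient of variation of CPM was about alike in both classes, with a median of 16.3% for the peroxins and 15.9% for the others.

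**Figure D1:**
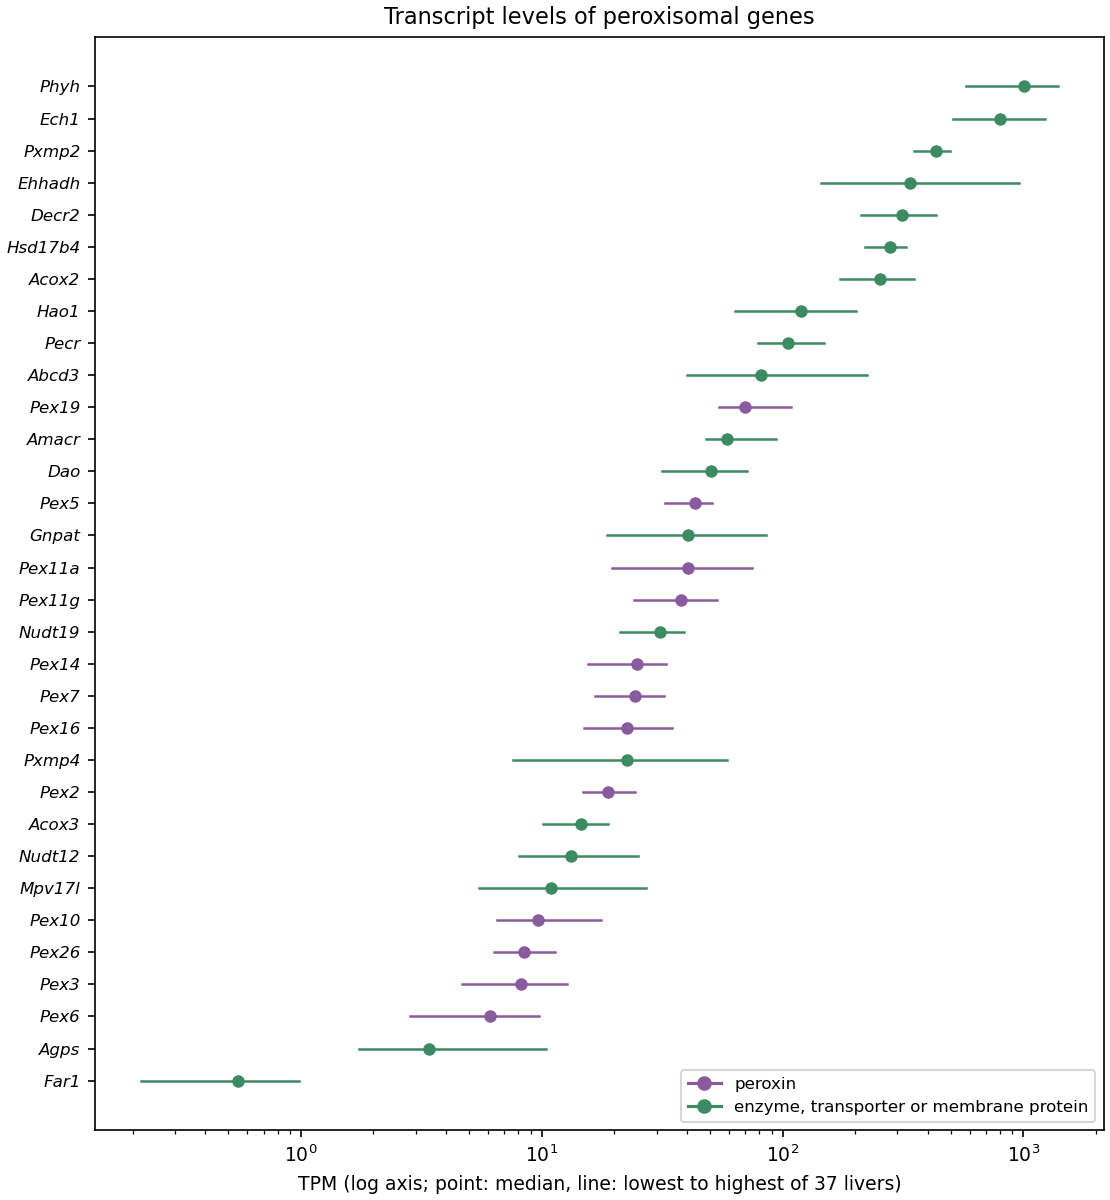
Level of each tested peroxisomal gene in TPM (log axis) over 37 livers, with a point at the median and a line from the lowest to the highest liver. Phyh leads at a median of 1004 TPM, Far1 is lowest at 0.55 TPM, and the peroxins (purple) lie between 6.12 and 70.02 TPM.

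The sum of the members' TPM overlapped widely between groups. It was 3852 to 5230 with a median of 4055 in the 8 controls, 3466 to 4812 with a median of 4135 in HFD, 3667 to 4732 with a median of 4359 in Dose I, and 3963 to 5234 with a median of 4499 in Dose II. Since Phyh and Ech1 alone make up much of this sum, single genes are described below.

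The comparison of HFD with control asks what 12 weeks of the diet did to these transcripts. Of the 32 tested members, 4 rose and 8 fell (edgeR quasi-likelihood test, Benjamini-Hochberg adjusted p under 0.1), which is 37.5% of them. The share of all 9099 tested genes that passed was 36.2%, with 18.1% higher and 18.1% lower, so the members were called about as often as genes at large. The median log2 fold change was −0.07 over the members and 0.01 over all genes. Among the peroxins, 1 of 12 rose and 2 fell, with a median log2 fold change of 0.01. Among the other 20 members, 3 rose and 6 fell, with a median of −0.19. No test of the difference between the classes was run. Over all 38 libraries 1 member rose and 8 fell, against 15.6% of all genes called (6.63% higher and 8.94% lower), since Pex3, Pex6, Ech1 and Nudt19 no longer passed and Pxmp2 passed. Liver tissue holds several cell types, and in such bulk RNA fewer cells of a type and less RNA per cell cannot be told apart.

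**Figure D2:**
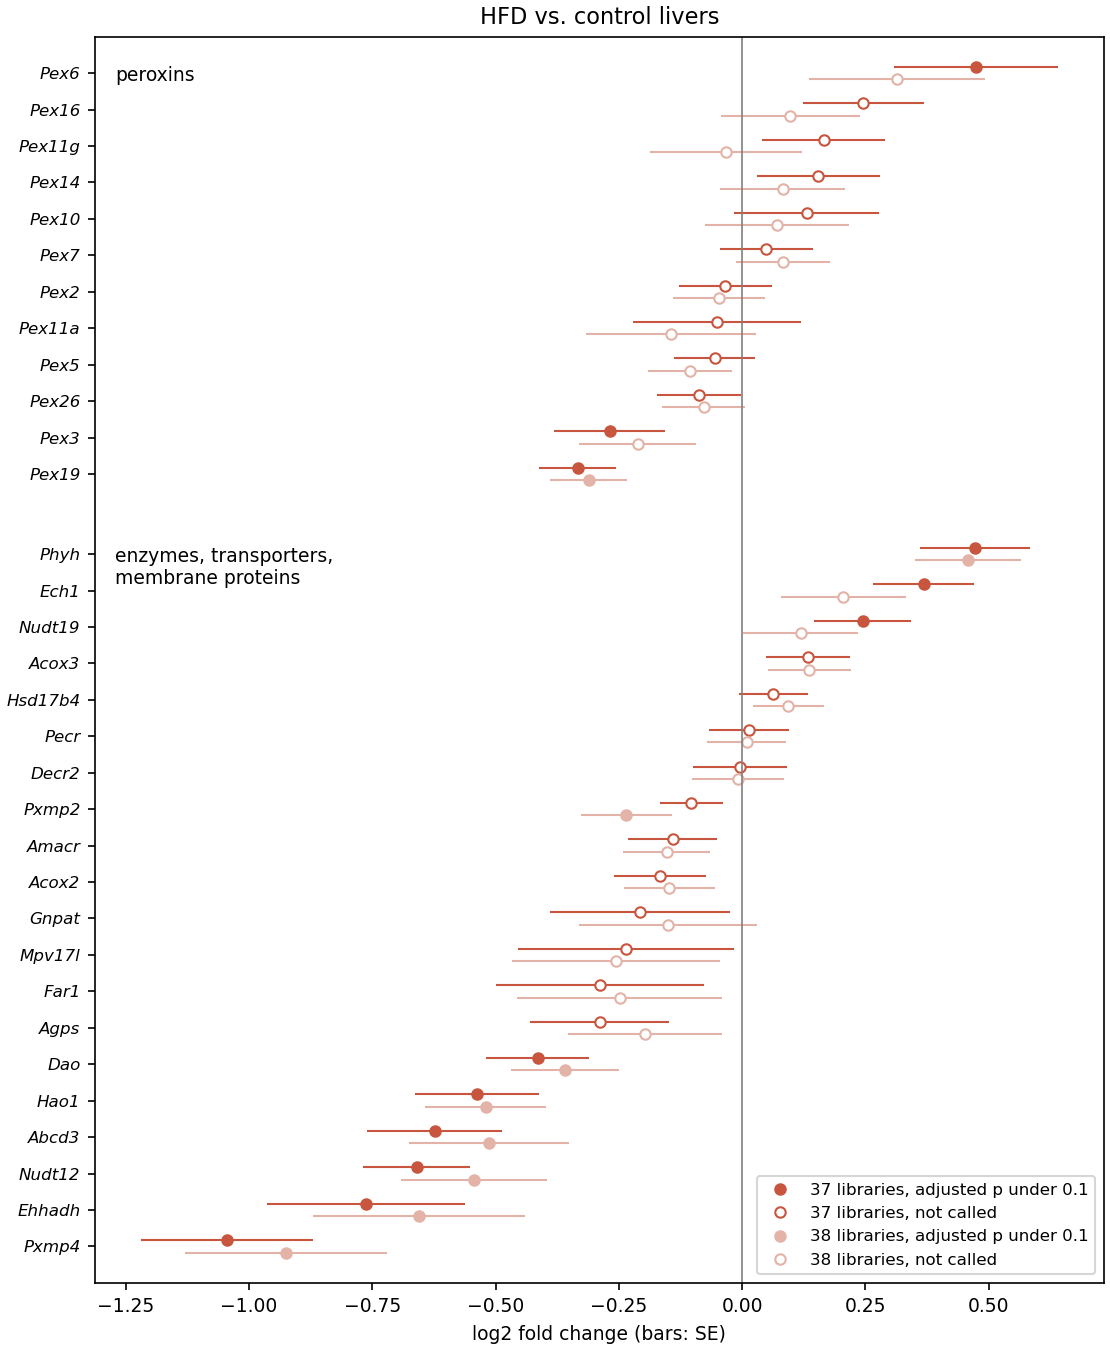
Log2 fold change of HFD against control for the 32 tested members, with bars of 1 SE (edgeR), over 37 libraries (dark) and over all 38 (pale). Filled points passed an adjusted p of 0.1, and the range runs from −1.04 for Pxmp4 to 0.47 for Pex6 over 37 libraries.

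The peroxins that fell were 2 of the 3 that insert membrane proteins. Pex19, the chaperone that carries new membrane proteins to the peroxisome, had 195 to 263 CPM in the controls (median 220) and 131.8 to 222 CPM in HFD (median 179). The upper end of HFD reached into the control range, but 9 of 10 HFD livers lay below the control median. The log2 fold change was −0.33 ± 0.08 (SE) at an adjusted p of 0.0018 (edgeR), or 1.26-fold lower. Pex3, its docking site in the membrane, had 18.3 to 30.6 CPM in the controls (median 22.7) and 12.2 to 22.5 CPM in HFD (median 19.6). Its log2 fold change was −0.27 ± 0.11 at an adjusted p of 0.0712 (edgeR), and all 10 HFD livers lay below the control median. This call was lost over all 38 libraries (−0.21, adjusted p = 0.267, edgeR) and when any of C101, C107, H112, H113, H115 or H118 was left out. Pex16, which acts in the same step, leaned the other way without being called (log2 fold change 0.25). It had 19.2 to 32.4 CPM in the controls (median 25.5) and 24.97 to 39.3 CPM in HFD (median 30.3). It was called higher when any of C104, C106 or H113 was left out.

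Pex6, an ATPase that helps to extract the import receptor from the membrane, was the peroxin that rose. It had 10.6 to 24.6 CPM in the controls (median 17.8) and 15.03 to 32.1 CPM in HFD (median 25.5). It was above the control median in 9 of 10 HFD livers, with a log2 fold change of 0.47 ± 0.17 at an adjusted p of 0.0295 (edgeR). Over all 38 libraries it was 0.31 with an adjusted p of 0.276 and no longer called, and C105 held 37.9 CPM, above every HFD liver. Pex26, which anchors Pex6 to the membrane, was not called, at medians of 37.03 CPM in the controls and 35.3 CPM in HFD.

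The receptors for matrix proteins were not called under the diet. Pex5, which binds the C-terminal targeting signal of most matrix enzymes, had medians of 149 CPM in the controls and 139 CPM in HFD, and its 95% interval ran from −0.22 to 0.11 on the log2 scale. Pex7, which carries Phyh and Agps by another signal, had medians of 34.0 and 36.3 CPM, with an interval of −0.13 to 0.23. Their docking partner Pex14 and the RING ligases Pex2 and Pex10, which mark the receptors for recycling, were not called either. Pex2, for example, had medians of 29.8 and 28.2 CPM and an interval of −0.22 to 0.15. Pex11a and Pex11g, which elongate peroxisomes before division, also did not pass. Pex11a, the form best known as a PPAR-alpha target in rodents, had 69.9 to 161 CPM in the controls and 74.4 to 127.2 CPM in HFD, with a log2 fold change of −0.05 ± 0.17.

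The clearest differences lay among the other members. Pxmp4, a small protein of the peroxisomal membrane, had 18.8 to 33.9 CPM in the 8 controls (median 25.7) and 7.74 to 17.4 CPM in HFD (median 14.3). Nudt12, a nudix hydrolase that splits NADH, had 53.2 to 71.7 CPM in the controls (median 61.04) and 32.1 to 48.4 CPM in HFD (median 39.3). For these 2 genes the 8 controls and the 10 HFD livers did not overlap, which held for 1.8% of all tested genes. The log2 fold changes were −1.04 ± 0.18 for Pxmp4 (2.06-fold lower, adjusted p = 5.4e-05) and −0.66 ± 0.11 for Nudt12 (1.58-fold lower, adjusted p = 3.9e-05, edgeR for both). C105, scaled with all 38 libraries, held 6.14 CPM of Pxmp4 and 17.1 CPM of Nudt12, below every HFD liver, so no member separated the groups over 38 libraries. Both genes were still called there, at −0.92 (adjusted p = 0.0035) and −0.54 (adjusted p = 0.0161, edgeR).

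Abcd3, the abundant ABC transporter that brings acyl-CoA and bile acid intermediates into the peroxisome, had 375 to 660 CPM in the controls (median 404) and 184 to 399 CPM in HFD (median 287). All 10 HFD livers lay below the control median, and the ranges met only at their edges. The log2 fold change was −0.62 ± 0.14, or 1.54-fold lower (adjusted p = 0.00099, edgeR), and −0.51 over all 38 libraries. The channel protein Pxmp2 was not called over 37 libraries, at −0.10 ± 0.06. It fell over all 38 (−0.23, adjusted p = 0.0954, edgeR), where C105 held 652 CPM against 305 to 377 CPM in the other controls, and also with the length trend removed (−0.22, adjusted p = 0.0042, edgeR). Mpv17l, a membrane protein linked to the handling of reactive oxygen, had medians of 32.8 CPM in the controls and 28.6 CPM in HFD and was not called (−0.23 ± 0.22).

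Of the enzymes of the beta-oxidation core, only Ehhadh passed the test under the diet over 37 libraries. Ehhadh, the L-bifunctional enzyme that handles dicarboxylic acids and is a PPAR-alpha target in rodents, had 632 to 1977 CPM in the controls (median 836) and 299 to 753 CPM in HFD (median 568.5). All 10 HFD livers were below the control median. The log2 fold change was −0.76 ± 0.20 (1.70-fold lower, adjusted p = 0.0045, edgeR). C106, at 1977 CPM, stood far above the next control at 1234 CPM, and without it the log2 fold change was −0.54 with an adjusted p of 0.0266. Hsd17b4, the D-bifunctional enzyme for branched chains and bile acid precursors, was close between the groups, with medians of 604 CPM in the controls and 619 CPM in HFD and a 95% interval of −0.07 to 0.20. The branched-chain oxidase Acox2 (−0.17 ± 0.09) and Acox3 (0.13 ± 0.09) were not called, although Acox3 rose with the length trend removed (0.22, adjusted p = 0.0743, edgeR).

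The enzymes around that core differed in direction. Phyh had 776 to 1356 CPM in the controls (median 932) and 897 to 1778 CPM in HFD (median 1290). It rose by 0.47 ± 0.11 on the log2 scale (1.39-fold, adjusted p = 0.0019, edgeR), with 9 of 10 HFD livers above the control median, and the ranges overlapped. Amacr, a racemase that feeds branched chains into beta-oxidation, was not called. Ech1 had 580 to 843 CPM in the controls (median 694) and 649 to 1119 CPM in HFD (median 909). It rose by 0.37 ± 0.10 on the log2 scale (adjusted p = 0.0070, edgeR) over 37 libraries, and was at 0.21 with an adjusted p of 0.322 over all 38, where C105 held 1459 CPM. Decr2, a reductase needed for unsaturated chains, was level at medians of 192 and 194 CPM, with an interval of −0.19 to 0.18. Pecr, a further reductase of enoyl-CoA, was not called.

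Hao1 and Dao, 2 oxidases that form hydrogen peroxide, both fell, while the oxidases Acox2 and Acox3 were not called, as given above. Hao1, which turns glycolate into glyoxylate, had 272 to 446 CPM in the controls (median 370) and 197 to 347 CPM in HFD (median 258). Dao, the D-amino acid oxidase, had 76.0 to 113.2 CPM in the controls (median 99.0) and 51.1 to 95.2 CPM in HFD (median 69.7). For each of them all 10 HFD livers lay below the control median while the ranges overlapped. The log2 fold changes were −0.54 ± 0.13 for Hao1 (adjusted p = 0.0018) and −0.41 ± 0.10 for Dao (adjusted p = 0.0031, edgeR for both), and both were called over all 38 libraries.

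Nudt19, a hydrolase that splits coenzyme A, was called higher in HFD, at 0.24 ± 0.10 with an adjusted p of 0.0605 (edgeR). It had 20.3 to 28.2 CPM in the controls and 19.2 to 34.1 CPM in HFD, and the call was lost without C103, without C109, over all 38 libraries, with the length trend removed and on TPM. The ether lipid enzymes did not pass under the diet. Gnpat, which attaches the acyl chain at the start of ether lipid synthesis, had medians of 121.3 CPM in the controls and 99.9 CPM in HFD (−0.21 ± 0.18). Agps, which exchanges that chain for an alcohol, was at −0.29 ± 0.14, and Far1 at −0.29 ± 0.21.

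**Figure D3:**
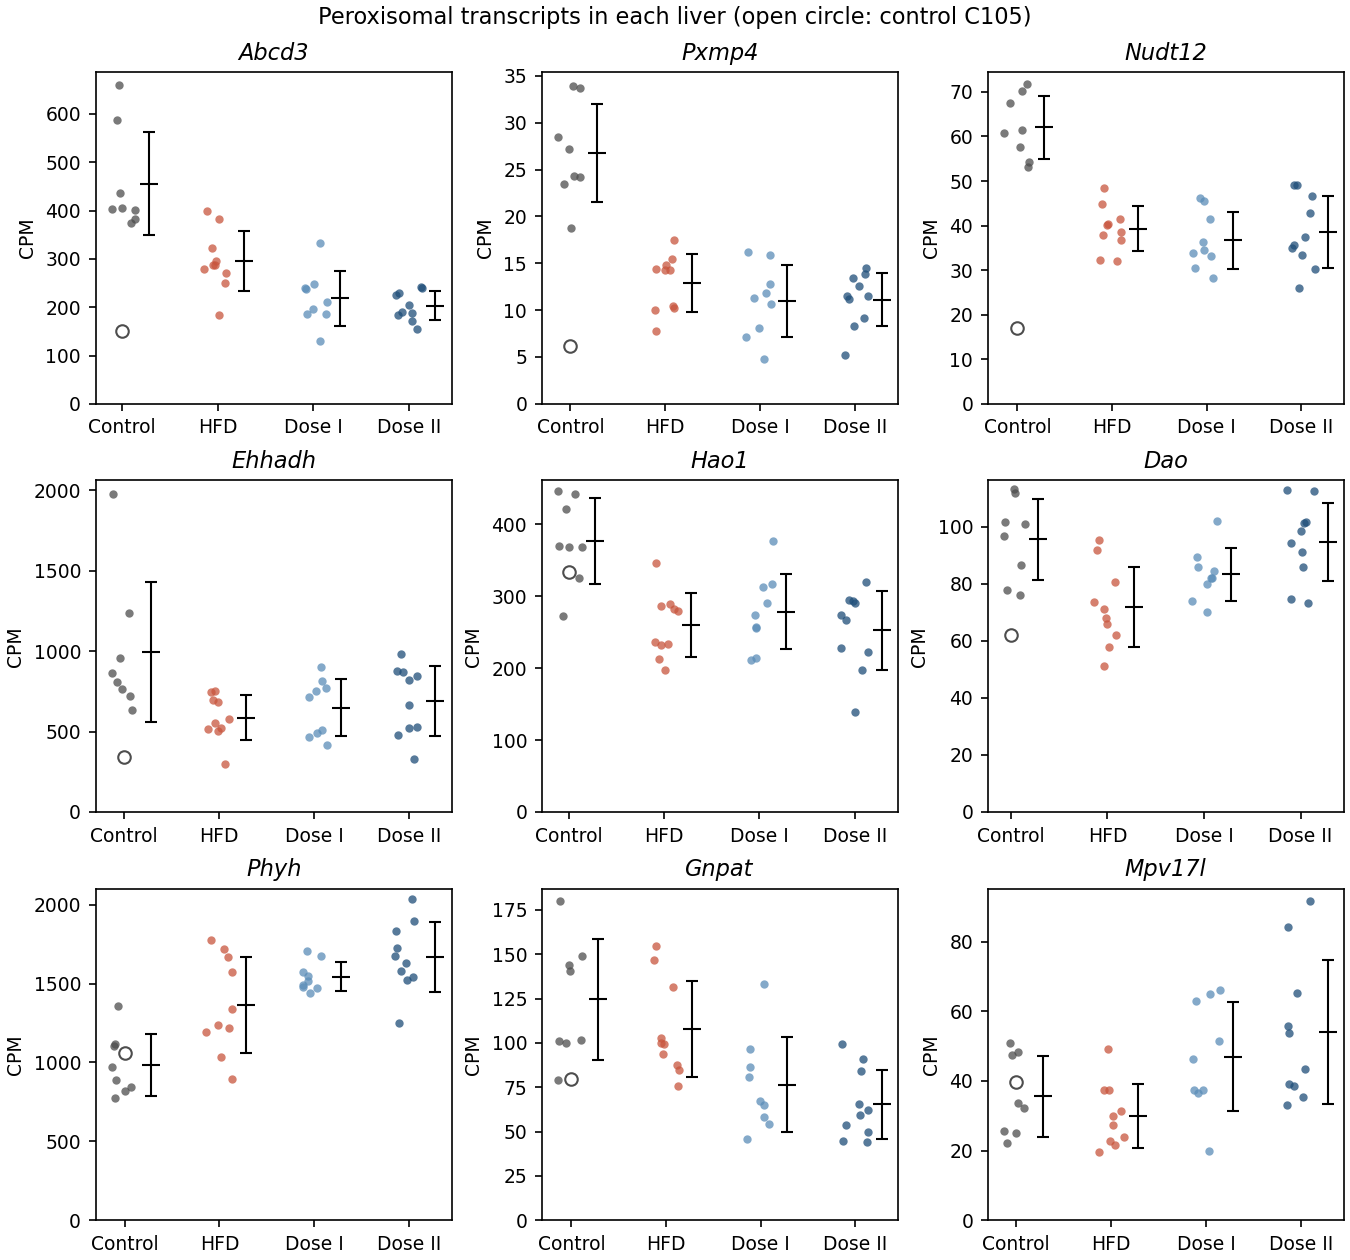
CPM of 9 peroxisomal genes in each liver (linear axes from 0), by group, with mean and SD bars beside the points and C105 as an open circle outside the mean. Abcd3 fell under HFD and again in Dose II, Dao fell under HFD and rose in Dose II, and Pxmp4 and Nudt12 of the 8 controls lay above every HFD liver.

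The comparisons of Dose I and Dose II with HFD ask what CMA did on top of the diet. They share the same 10 HFD libraries, so their values stand side by side and are not independent. In Dose II, 2 members rose and 2 fell, which is 12.5% of 32, against 5.63% of all genes (3.37% higher and 2.25% lower). None of the 12 peroxins was among them with edgeR or DESeq2 (1 had an unadjusted p under 0.05 with edgeR, Pex5), and 4 of the 20 others were. Of all 9099 genes, 1691 had an unadjusted p under 0.05 with edgeR. The same 4 were called over all 38 libraries, where 2.7% of all genes passed. The median log2 fold change was 0.0049 over the members and −0.004 over all genes. No member separated the Dose II and HFD groups, which 0.121% of all genes did. The count grew to 7 when H110 was left out, as Phyh, Pxmp2 and Pex5 then rose too. Of all genes, 6.93% passed in that setting.

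Gnpat fell most in Dose II. It had 75.5 to 154 CPM in HFD (median 99.9), 45.7 to 133.1 CPM in Dose I (median 67.4) and 44.04 to 99.6 CPM in Dose II (median 60.7). All 10 Dose II livers and 8 of 9 Dose I livers lay below the HFD median. The log2 fold change was −0.72 ± 0.17 in Dose II (1.65-fold lower, adjusted p = 0.0156, edgeR) and −0.50 ± 0.18 in Dose I, which did not pass (adjusted p = 0.342). Its partner enzyme Agps was not called in either dose (−0.24 ± 0.14 in Dose II and −0.20 ± 0.14 in Dose I).

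Abcd3, already lower in HFD than in control, fell further in Dose II. It had 184 to 399 CPM in HFD (median 287), 129.4 to 333 CPM in Dose I (median 211) and 155 to 241 CPM in Dose II (median 198). All 10 Dose II livers and 8 of 9 Dose I livers lay below the HFD median. The log2 fold change was −0.55 ± 0.13 in Dose II (1.46-fold lower, adjusted p = 0.0142, edgeR). In Dose I it was −0.44 ± 0.13 with an adjusted p of 0.211, and it passed there only with DESeq2 (adjusted p = 0.0909) and without DI122 (−0.54, adjusted p = 0.0534, edgeR).

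Mpv17l and Dao rose in Dose II. Mpv17l had 19.6 to 49.3 CPM in HFD (median 28.6), 19.95 to 65.98 CPM in Dose I (median 46.2) and 33.0 to 91.6 CPM in Dose II (median 48.6), and the ranges overlapped while all 10 Dose II livers lay above the HFD median. Its log2 fold change was 0.84 ± 0.20 in Dose II (1.80-fold, adjusted p = 0.0156, edgeR) and 0.65 ± 0.21 in Dose I (adjusted p = 0.269). Dao had 51.1 to 95.2 CPM in HFD (median 69.7), 70.05 to 102.2 CPM in Dose I (median 82.0) and 73.3 to 112.98 CPM in Dose II (median 96.5). All 10 Dose II and all 9 Dose I livers were above the HFD median, and the Dose II range was close to that of the controls, 76.0 to 113.2 CPM. The log2 fold change was 0.40 ± 0.10 in Dose II (adjusted p = 0.0178, edgeR) and 0.22 ± 0.10 in Dose I (adjusted p = 0.504). Dao was called lower under HFD and higher in Dose II, but these 2 comparisons also share the HFD libraries.

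**Figure D4:**
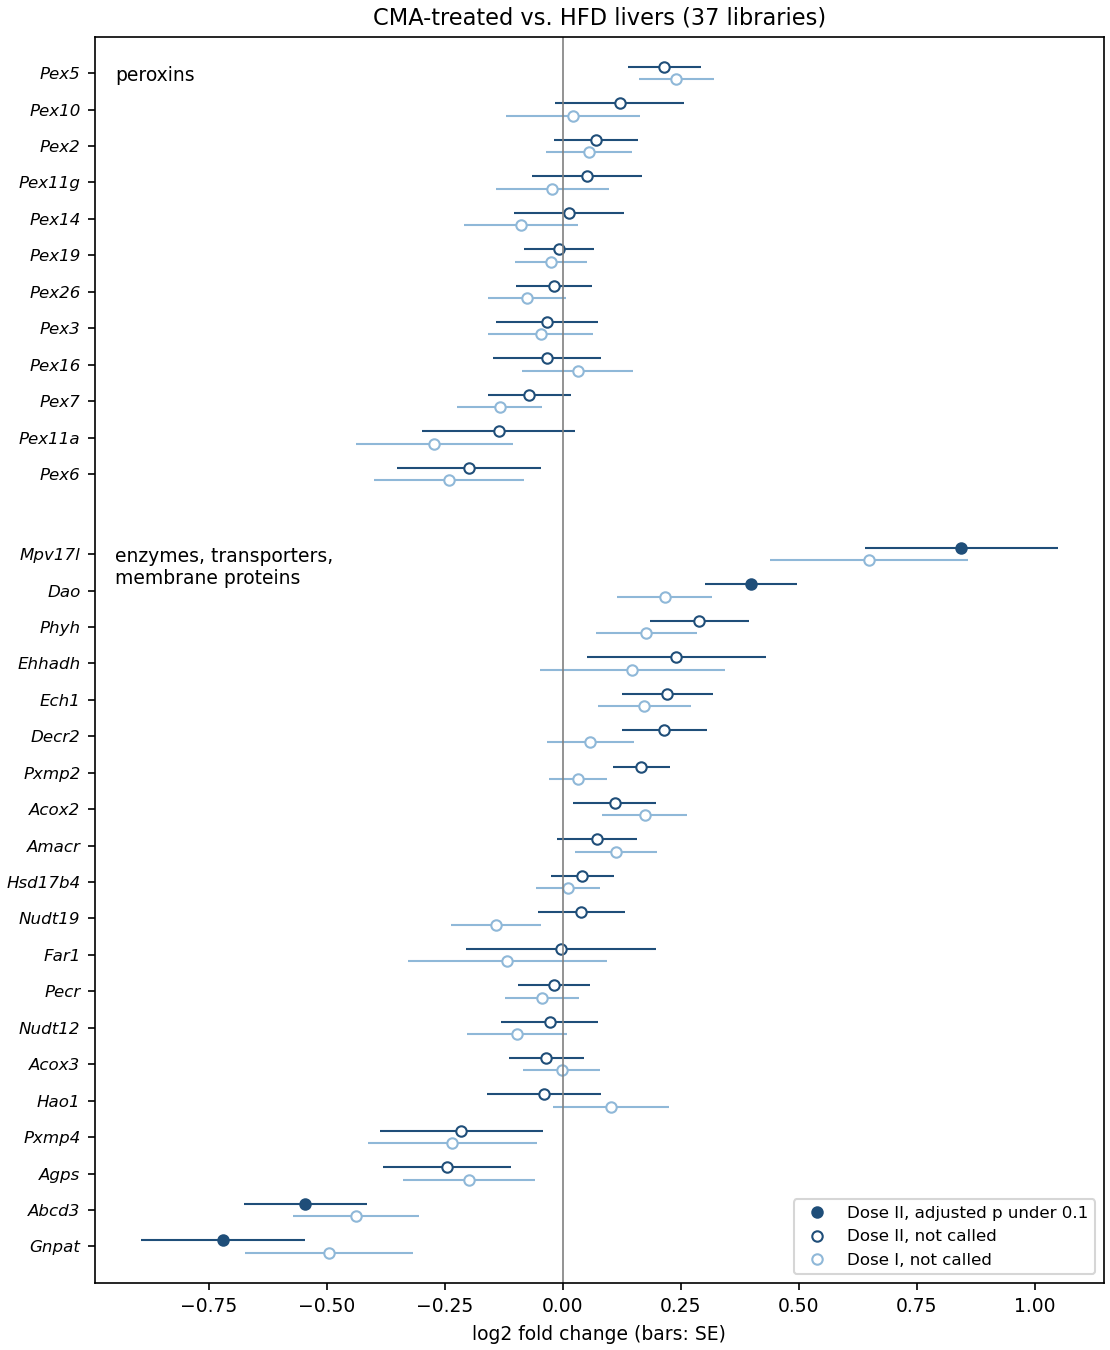
Log2 fold change against HFD in Dose II (dark) and Dose I (pale) for the 32 tested members, with bars of 1 SE (edgeR, 37 libraries); both doses share the HFD livers. Filled points, which passed an adjusted p of 0.1, are Mpv17l, Dao, Abcd3 and Gnpat in Dose II, and no point of Dose I is filled.

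In Dose I, 0 of 32 members passed with edgeR, against 0.187% of all genes. There were 5 members at an unadjusted p under 0.05, beside 842 of all 9099 genes. DESeq2 called 1 member, Abcd3, and 1.61% of all genes. Besides Abcd3, Gnpat, Mpv17l and Dao, the member nearest to the threshold in Dose I was Pex5, whose HFD range of 113.8 to 179 CPM (median 139) compared with 137.1 to 192 CPM in Dose I (median 170) and 140 to 190 CPM in Dose II (median 164). It was above the HFD median in 8 of 9 Dose I and in all 10 Dose II livers, at 0.24 ± 0.08 (adjusted p = 0.287) and 0.21 ± 0.08 (adjusted p = 0.121, edgeR). Pex5 passed in Dose II with the length trend removed (0.23, adjusted p = 0.0969) and without H110, H111, H112 or DII129. The 95% intervals of the 12 peroxins lay between −0.60 and 0.40 in Dose I and between −0.50 and 0.39 in Dose II, so changes of the size seen for Gnpat or Mpv17l in Dose II were outside them.

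Of the members that fell under the diet, Abcd3 and Dao were called again in Dose II, as given above, and the other 6 were not called in either dose. Pxmp4 had medians of 14.3 CPM in HFD, 11.3 CPM in Dose I and 11.5 CPM in Dose II, and its interval in Dose II was −0.55 to 0.12. Nudt12, whose substrate NADH is made from the NAD+ that nicotinamide riboside supplies, had medians of 39.3, 34.5 and 36.6 CPM, with an interval of −0.23 to 0.17 in Dose II. Hao1 had medians of 258, 274 and 270 CPM, with an interval of −0.27 to 0.20. Pex19 was level at 179, 174 and 174 CPM, with an interval of −0.15 to 0.14, and Pex3 lay between −0.24 and 0.18. Ehhadh had medians of 568.5, 717 and 742 CPM, yet its interval was wide, −0.13 to 0.61, and it was not called (adjusted p = 0.53, edgeR).

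Several abundant members leaned higher in Dose II without passing the threshold. Phyh had medians of 1290 CPM in HFD, 1514 CPM in Dose I and 1653 CPM in Dose II, with 9 of 10 Dose II livers above the HFD median, at 0.29 ± 0.10 (adjusted p = 0.12, edgeR). It passed without H110, H116 or DII134. Decr2 was at 0.21 ± 0.09 (adjusted p = 0.181) and Ech1 at 0.22 ± 0.10 (adjusted p = 0.203). Pxmp2 was at 0.17 ± 0.06 (adjusted p = 0.119) and passed with DESeq2 (0.16, adjusted p = 0.0731) and without H110 or H112. Hsd17b4 remained level, with medians of 619, 620 and 622 CPM in HFD, Dose I and Dose II.

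Dose II compared with Dose I gave 0 called members and 0 called genes of 9099 with edgeR. At an unadjusted p under 0.05 there was 1 member and 271 genes, and DESeq2 called 0 members. The log2 differences of the 32 members ran from −0.22 to 0.20, and their 95% intervals lay between −0.57 and 0.60, so the 4 members called in Dose II are not shown to differ from Dose I.

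Other peroxisomal genes from a separate list were examined in the same fit. Of 25 tested, 2 rose and 8 fell under HFD, where 18.1% of all genes rose and 18.1% fell. The genes that fell included Acad11, an acyl-CoA dehydrogenase (−0.34 ± 0.06, adjusted p = 0.00019), Ide, an insulin-degrading protease also found in peroxisomes (−0.33 ± 0.07, adjusted p = 0.0010), and Acsl1, an acyl-CoA synthetase (−0.38 ± 0.11, adjusted p = 0.0114). Mlycd, which breaks down malonyl-CoA, rose by 0.88 ± 0.17 (adjusted p = 0.00038, edgeR for these). Catalase (Cat), which removes hydrogen peroxide, fell by 0.19 ± 0.08 on the log2 scale, a call lost over all 38 libraries (−0.16, adjusted p = 0.243). Over all 38 libraries 1 of this list rose and 6 fell, where 6.63% of all genes rose and 8.94% fell. In Dose I 0 were called, and in Dose II, where 3.37% of all genes rose, 2 rose and 0 fell: Gstk1, a glutathione transferase (0.41 ± 0.09), and Prdx5, a peroxidase (0.28 ± 0.08). Prdx5 was not called over 38 libraries.

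The receptor complex and other targets of PPAR-alpha were also described. Of 10 tested genes of the receptor, its partners and cofactors, 2 rose and 6 fell under HFD, where 36.2% of all genes were called, and over all 38 libraries 0 rose and 3 fell, where 15.6% were. Ppara itself, the receptor, was at −1.05 ± 0.22 (adjusted p = 0.0007, edgeR) and at −0.90 over all 38 libraries (adjusted p = 0.0301), and its partner Rxra was at −0.45 ± 0.14 (adjusted p = 0.0156). Of 22 tested PPAR-alpha targets outside the peroxisome, 2 rose and 5 fell, and over all 38 libraries 0 rose and 4 fell, beside 36.2% and 15.6% of all genes called. Cpt1a, the gate of mitochondrial fatty acid uptake, was among those that fell, at −1.08 ± 0.17 (adjusted p = 3.1e-05, edgeR). In Dose I and Dose II 0 genes of the receptor complex were called, and of the targets only Plin2, a lipid droplet protein, fell in Dose II (−1.41 ± 0.46, adjusted p = 0.0865, edgeR), a call lost over all 38 libraries (adjusted p = 0.116).

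Markers of cell types and of RNA length moved with the groups as well. Of 10 macrophage and Kupffer cell markers tested, 6 rose and 0 fell under HFD, where 18.1% of all genes rose, and 0 rose and 6 fell in Dose II, where 2.25% of all genes fell. The summed level of these markers was 212 to 292 CPM in the 8 controls, 294 to 487 CPM in HFD, 223 to 429 CPM in Dose I and 209 to 385 CPM in Dose II, so the 8 controls lay below every HFD liver, while C105 was at 527 CPM. Over all 38 libraries 2 of these markers rose under HFD and 1 fell in Dose II. Of all genes, 6.63% rose and 8.94% fell under HFD over these 38, and 2.7% were called in Dose II. Of 5 hepatocyte markers, 1 rose and 3 fell under HFD (0 and 1 over all 38 libraries), with a summed level of 193077 to 235618 CPM in the controls and 123242 to 184560 CPM in HFD, led by Alb. Their levels mark the tissue as liver, as labelled. In Dose II 1 hepatocyte marker rose and 0 fell. Of 7 sinusoidal endothelial markers, 2 rose under HFD (0 over all 38 libraries) and 2 fell in Dose II (1 over all 38). Under HFD 1 of 7 stellate cell markers fell, 1 of 4 cholangiocyte markers rose (0 over all 38) and 0 of 2 lymphocyte markers were called. No marker in the tables was at 0 in every library of a comparison. In Dose I 0 markers of any list were called. The part of cell composition in the members' values was not tested.

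Of 29 long transcripts of widely expressed genes, 0 rose and 18 fell under HFD, where 18.1% of all genes fell. Of 9 short ribosomal protein transcripts 9 rose, where 18.1% of all genes rose. Over all 38 libraries these counts were 7 and 1, where 8.94% of all genes fell and 6.63% rose. In Dose II 4 of the long transcripts fell and 2 of the short ones rose, where 2.25% of all genes fell and 3.37% rose. Over all 38 libraries these Dose II counts were 1 and 0, where 2.7% of all genes were called. Among the members called under HFD, the median relative transcript length was 1.05 for those that fell and 0.58 for those that rose, where 1 is the middle of all genes. With each library's length trend removed, 15 of the 16 calls made under HFD and in Dose II passed again in the same direction, the exception being Nudt19 (0.15 in place of 0.24). The part of RNA quality in these values was otherwise not tested.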

How the data were processed

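RNA from 38 hamster livers was sequenced on an Illumina NovaSeq. Transcripts were quantified by the authors with kallisto against MesAur1.0.101, and they deposited estimated counts per gene symbol, not normalized, and TPM. The kallisto version, trimming and strand setting are not given in the sources used here. Near-identical genes may trade estimated counts. All columns were matched to a labelled sample by number.

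Estimated counts were rounded, filtered with filterByExpr, scaled by TMM and fitted with edgeR 4.0.16 (quasi-likelihood, 1 coefficient per group, all 4 groups together) in R 4.3.3, with Benjamini-Hochberg adjustment over all tested genes and a threshold of 0.1, the study's. SEs were derived from each log2 fold change and its F statistic (their ratio to the root of F). C105, the control farthest from the others on the first principal component (500 most variable genes, log2 CPM with a prior count of 2), was left out, as the study left out 1 control on PCA, and every comparison was also run on all 38 libraries. Depth was 4.08e+06 to 1.04e+07 estimated counts per library, and the least abundant tested member, Far1, had a median of 15.5. Relative transcript length was the ratio of estimated counts to TPM. No pair of libraries of a group held identical values. P-values set a difference between groups against the spread between libraries.

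The members, gene lists and named genes were chosen with earlier results of these data known. Named members were, by adjusted p, the top 8 that rose and the top 8 that fell under HFD, the top 5 either way in the other comparisons, and a fixed set of Pex2, Pex3, Pex5, Pex7, Pex11a, Pex19, Abcd3, Ehhadh, Hsd17b4, Phyh, Mpv17l, Hao1 and Decr2, with up to 4 genes of each other list. Cat, Prdx5 and further members given in passing fall outside that rule and were added after their values were seen. Alternatives were DESeq2 1.42.0, fits of the compared groups only, RLE scaling, no filter or at least 10 counts in every library, removal of each library's length trend (a lowess fit with a span of 0.3), limma 3.58.1 on log2(TPM + 1) and log2(TPM + 0.1), a stricter threshold of 0.05, and leaving out single libraries. The scripts were tested on simulated data. Figures were drawn with matplotlib 3.10.9. Of the 37 genes that the rule gives, 34 are described, and the other 3 and some genes of the list of other peroxisomal genes are not reported here, nor counted. Protein and promoter sequences were not analysed here.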

Additional observations from a re-analysis of the deposited data

Results flagged for a closer look

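Control library C106 stood apart from the other controls for 3 genes. It held 1977 CPM of Ehhadh, where the next control held 1234 CPM, 161 CPM of Pex11a, where the next held 112.5 CPM, and 267 CPM of Decr2, where the next held 205 CPM. In each case the gap to the nearest control exceeded Dixon's critical value for a group of this size. These were 3 of 80 groups of values checked, which is not above the 1 in 20 or so that chance alone gives. All 3 came from C106, and checks that share a library are not independent. Without C106 the log2 fold change of HFD against control was −0.54 for Ehhadh, which still passed (adjusted p = 0.0266, edgeR), 0.08 for Pex11a (adjusted p = 0.781) and 0.08 for Decr2 (adjusted p = 0.574), neither of which passed.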

How the results depend on the processing

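The count of members called under HFD was 12 over 37 libraries, 9 to 13 under 11 alternatives and 11 to 13 when each library was left out. Agps then also passed, as lower, without C102 or C107, and Pex16, as higher, without C104, C106 or H113. In Dose I it was 0, and 1 with DESeq2 (Abcd3), with 0 to 1 when each library was left out. In Dose II it was 4, 4 to 5 under the alternatives and 4 to 7 with a library left out, the highest without H110. Between the doses it was 0 in all these settings. The share of all genes called under HFD was 36.2% over 37 libraries and 15.6% to 38.8% under the alternatives. With a library left out it was 31.5% to 38.2%. In Dose II it was 5.63%, 2.53% to 7.14% and 3.3% to 6.93% in the same order. In Dose I it was 0.187%, 0.055% to 1.61% and 0.044% to 0.903%. Values of called members were then followed at the threshold of 0.1, so the stricter threshold of 0.05 is not among them. Of 160 such values under the other alternatives, 149 stayed past 0.1 in the same direction and 11 did not pass, with 0 reversed. Of 296 with a library left out 288 stayed. The calls lost under these other alternatives were Ech1, Nudt19, Pex3 and Pex6 over all 38 libraries, with or without the length trend. Nudt19 was also lost with the length trend removed and on TPM. At the stricter threshold of 0.05, Pex3 (adjusted p = 0.0712) and Nudt19 (adjusted p = 0.0605, edgeR for both) under HFD do not pass either. With a library left out, Pex3 was lost when any of 6 libraries was the one left out, and Nudt19 without C103 or C109. Of 640 values of the 20 named members where they were not called, 19 changed sign and 2 passed, Abcd3 in Dose I with DESeq2 and Pex5 in Dose II with the length trend removed. Outside the named members, Pxmp2 and Acox3 passed under alternatives under HFD, and Pxmp2 in Dose II with DESeq2. The cause was not tested. Over all genes, 307 of 512 called in Dose II rose, against 151 of 590 and 147 of 588 with limma on TPM and a pseudocount of 1 or 0.1. Over all 38 libraries the calls among members under HFD were 1 higher and 8 lower, beside 6.63% and 8.94% of all genes. No paired analysis was possible because the replicate numbers run through all libraries and no number is shared by 2 groups. At medians near 15.5 counts, as for Far1, counting error limits what can be seen.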
